A study of Mus musculus with 2 samples.

Results

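The genes described here act in mitosis, the spindle checkpoint and the condensation of chromosomes. They are 49 genes chosen by name, of 20887 genes named on the array, and all 49 had at least 1 probe. The list was chosen with earlier results of these data known, so shares of all genes set beside it are not a blind comparison. Their transcripts were read in primary pericytes of the mouse penis (strain C57BL/6), which are contractile cells that lie on small vessels, grown in culture. High glucose cells were kept for 72 h in glucose labelled 30 mmol and normal glucose cells for 72 h in glucose labelled 5 mmol. The medium of both groups held fetal bovine serum and human pigment epithelium-derived factor. For each condition RNA of 3 samples was pooled and hybridised to 1 Agilent 1-colour array. There is therefore 1 high glucose and 1 normal glucose array with no replicate, no test was run and no p-value is given, and each difference given is one between 2 pooled RNAs. Age of the animals is not in the labels, and an osmotic control is not analysed here.

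Entry into mitosis is driven by the kinase Cdk1 bound to A and B type cyclins. Condensin then folds the chromosomes, kinetochores tie them to the spindle, and the spindle checkpoint holds back the anaphase promoting complex until all are attached. That complex next marks cyclin B and securin for destruction, sister chromatids part, and the cell divides at the midzone. Many of these transcripts are made late in the cell cycle and are low in resting cells. In a bulk sample, more cycling cells and more RNA per cycling cell cannot be told apart.

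A gene was called measured when its probe passed the background flag on each array without saturation. High glucose and normal glucose arrays had 57.6% and 56.3% of gene spots well above background, with 0 saturated gene spots on each. Levels are processed signals, an intensity that is not comparable between probes. Ratios were taken after subtracting each array's 75th percentile, 733 in high and 774 in normal glucose, so equal signals give a log2 ratio of 0.08. Of 12 pericyte markers 10 were measured, among them Pdgfrb at 18161 in high and 17471 in normal glucose. Kcnj8 and Vtn were dim, not well above background. All 7 smooth muscle and 8 of 9 fibroblast markers were measured too, so the markers do not single out pericytes. Among markers of other cells, 6 of 7 immune, 3 of 8 endothelial, 4 of 7 epithelial and 5 of 6 Schwann cell genes on the array were measured. Of all 20887 named genes 14176 were measured, so such counts alone do not show that other cells were present. Their signals ran from dim, as in Krt14 at 37.6 in high glucose, to bright, as in Itgam at 22557.

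Most mitosis genes were slightly higher on the high glucose array. Of the 49, 45 were measured on both arrays, and 41 of these 45 had a log2 ratio above 0, against 46.8% of the 14176 named genes measured. Their median log2 ratio was 0.21 (1.16-fold), with an SD over genes of 0.11, while all named genes had a median of -0.01 and an SD of 0.24. The SD of all genes depends on signal, being 0.44 for log2 signals below 7, 0.28 from 7 to 9, 0.16 from 9 to 12 and 0.14 above 12, and 36 of the 45 members have a log2 signal of 9 or more. By size, 35 of the 45 lay between 0.10 and 0.35 on the log2 scale, where 15.0% of all named genes lay. At least 1.2-fold higher were 15 of 45, against 6.8% of all named genes. None of the 45 was at least 1.2-fold lower, against 5.51%, and none reached 1.5-fold in either direction, against 1.62% higher and 1.19% lower. Without scaling, 38 of the 45 signals were higher in high glucose, against 22.9% of all named genes.

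The scaling sets where 0 lies. Median centring lowers each log2 ratio by 0.06, so any ratio given between 0 and 0.06 turns negative with it, those of Spc24, Lin9, Lin37, Cd3e, Acta2 and Tagln among them. With each array centred on its median the members' median was 0.15, 39 of 45 were above 0 and 5 were at least 1.2-fold higher, while the median of all named genes was -0.07 and 27.3% of them were above 0. Of all genes at least 1.2-fold different, 55.2% were higher in high glucose as scaled here, 37.4% with median centring and 45.2% from median pixels. The members' median lay above that of all genes by 0.22 as scaled here, and by 0.18 to 0.25 under the 12 alternatives.

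**Figure D1:**
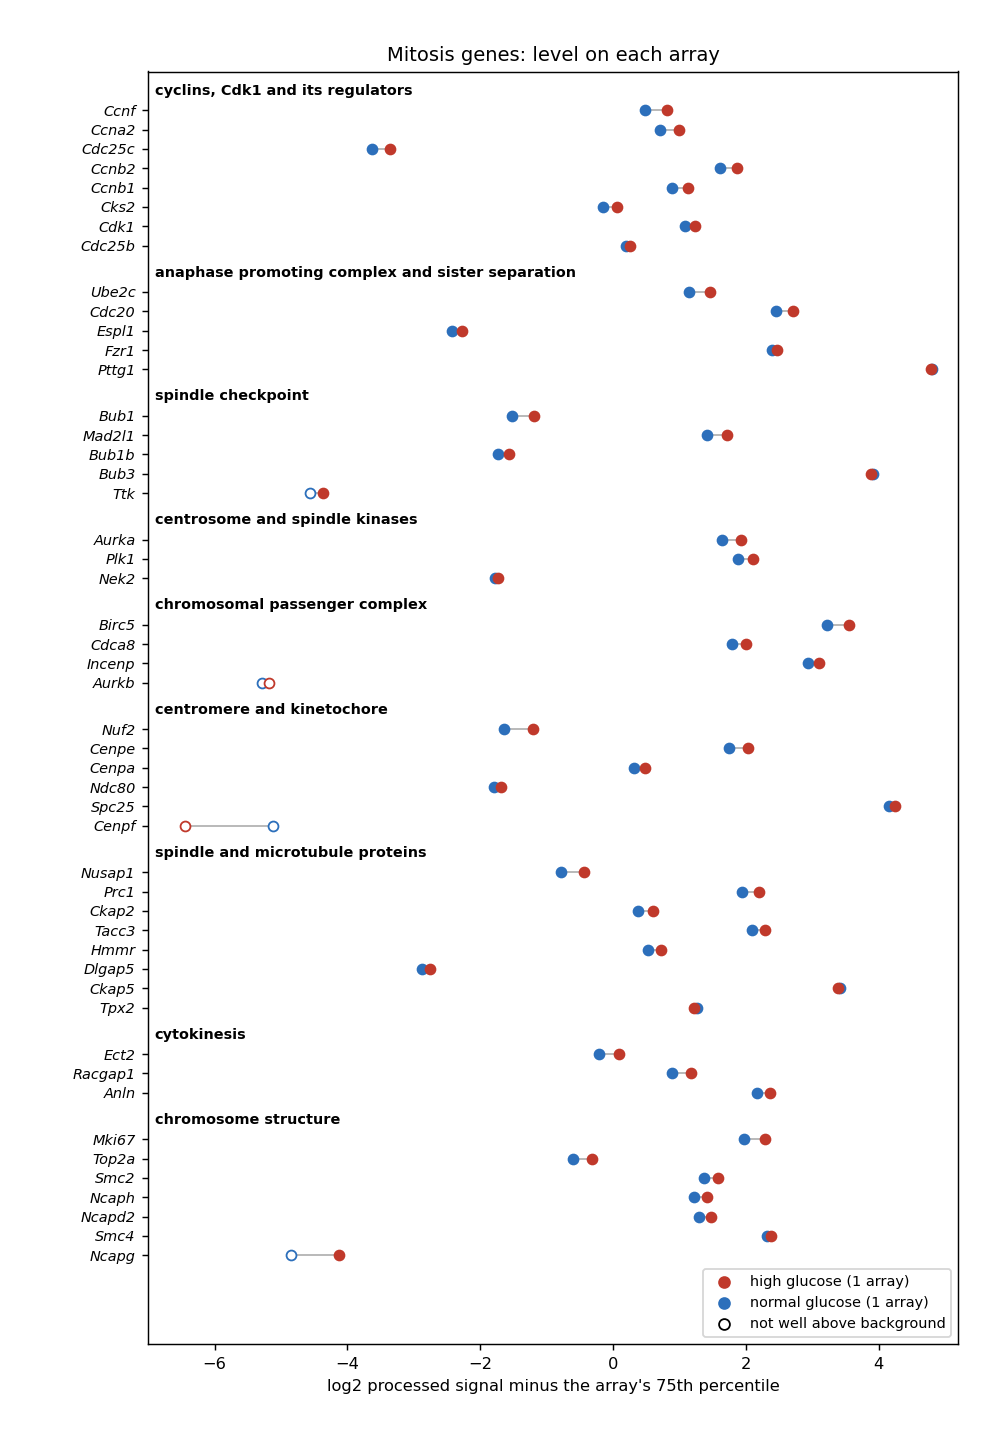
Level of each of the 49 genes on the high glucose array (red) and the normal glucose array (blue), as log2 processed signal minus the 75th percentile of that array, grouped by role. Open circles were not well above background, and the red point lies to the right of the blue one for 41 of the 45 genes measured on both arrays.

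Probes with 10 spots on each array give the error of a spot. The log2 ratio of a single spot had a median SD of 0.25 for log2 signals below 7, 0.10 from 7 to 9, 0.04 from 9 to 12 and 0.03 above 12. Repeat spots share the pool and the hybridisation, so this SD leaves out the difference between cultures. The ratios of 33 of 45 members lay above 0 by more than 2 such SDs, against 16.0% of all named genes, and those of 12 lay within 2 SDs of 0. No member lay below 0 by more than 2 SDs as scaled here, against 18.5% of all named genes, and none by more than 1 SD. With median centring, however, Bub3, Pttg1 and Ckap5 at -0.09 and Tpx2 at -0.10 lay more than 2 SDs below 0. Of the 36 members with a mean log2 signal of 9 or more, 32 were higher and 11 at least 1.2-fold higher, where 45.0% and 2.79% of the 9587 named genes that bright were. Spots around the members had median log2 ratios between -0.05 and 0.05, and with that local trend removed 42 of 45 members were above 0.

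**Figure D2:**
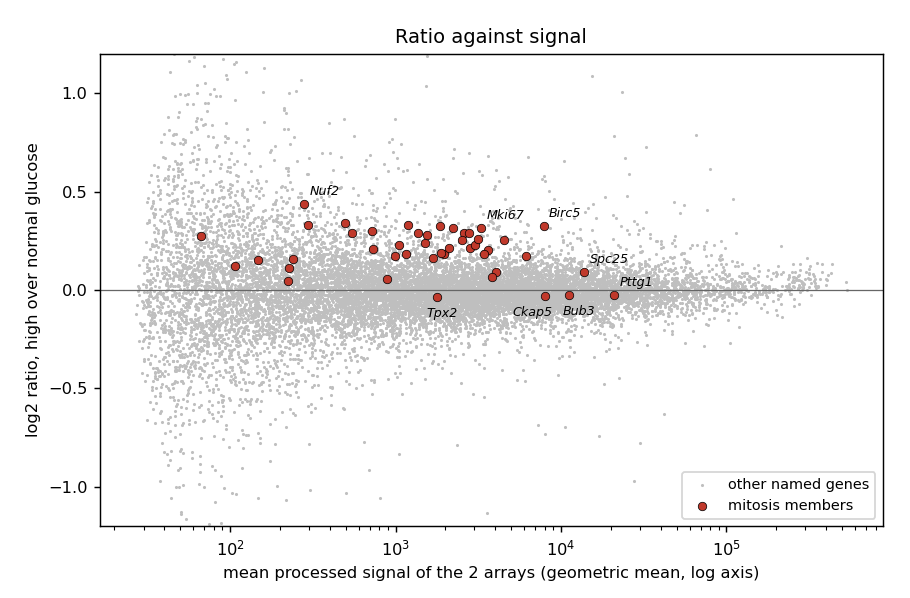
Log2 ratio of high over normal glucose (vertical axis) against the mean processed signal of the 2 arrays (horizontal axis, log scale), 1 point per named gene measured on both arrays, members in red. Genes beyond 1.2 in either direction are not drawn, and most members form a band above 0 while Pttg1, Bub3, Ckap5 and Tpx2 lie at -0.03.

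Many promoters of these genes hold motifs already known from mitotic genes. A high share therefore comes with the choice of genes by name and adds no support for the ratios. The cell cycle homology element, TTTGAA, and the CCAAT box are known from mouse and human mitotic genes as sites read by the DREAM and MuvB complexes and by NF-Y. Promoters of 42 of the 49 genes were in the RefSeq table of build GRCm38.p6, each 250 bases before to 50 bases after a start. TTTGAA or its complement TTCAAA stood in 28 of 42 (66.7%), against 20.2% of 27025 genes with a promoter there. CCAAT or its complement ATTGG stood in 33 of 42 (78.6%), against 41.1%, and both motifs in 26 of 42 (61.9%), against 7.97%. Matches were counted on both strands, and a TTTGAA match overlapped a CCAAT match in 1 place. A gene was counted when any of its promoters there held the motif. The 250 bases before the start of the 6 members with the highest ratios among those with TTTGAA in that stretch show the arrangement, with both motifs in capitals:
Ccnf: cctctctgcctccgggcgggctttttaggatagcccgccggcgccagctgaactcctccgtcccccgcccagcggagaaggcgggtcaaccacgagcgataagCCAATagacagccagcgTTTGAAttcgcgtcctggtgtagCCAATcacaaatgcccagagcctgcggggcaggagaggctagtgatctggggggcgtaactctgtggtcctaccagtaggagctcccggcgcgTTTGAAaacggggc
Ube2c: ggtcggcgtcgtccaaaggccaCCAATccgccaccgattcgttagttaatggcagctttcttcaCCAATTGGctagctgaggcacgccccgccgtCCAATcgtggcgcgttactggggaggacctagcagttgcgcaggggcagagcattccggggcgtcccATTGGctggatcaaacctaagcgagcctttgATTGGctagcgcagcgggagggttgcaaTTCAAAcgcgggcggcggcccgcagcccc
Mki67: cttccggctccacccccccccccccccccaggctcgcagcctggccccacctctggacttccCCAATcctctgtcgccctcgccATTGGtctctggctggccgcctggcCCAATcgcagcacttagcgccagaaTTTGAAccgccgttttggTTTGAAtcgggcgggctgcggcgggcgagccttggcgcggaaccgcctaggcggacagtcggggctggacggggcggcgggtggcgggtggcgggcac
Ect2: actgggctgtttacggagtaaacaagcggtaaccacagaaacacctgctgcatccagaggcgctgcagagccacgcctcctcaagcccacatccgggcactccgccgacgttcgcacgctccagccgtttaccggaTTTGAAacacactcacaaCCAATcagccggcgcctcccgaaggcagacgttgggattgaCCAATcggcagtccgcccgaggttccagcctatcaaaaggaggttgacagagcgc
Top2a: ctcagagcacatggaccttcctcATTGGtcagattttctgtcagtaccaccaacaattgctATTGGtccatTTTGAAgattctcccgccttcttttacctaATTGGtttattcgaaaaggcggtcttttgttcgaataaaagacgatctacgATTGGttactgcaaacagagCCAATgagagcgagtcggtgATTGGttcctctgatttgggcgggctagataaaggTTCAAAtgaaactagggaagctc
Prc1: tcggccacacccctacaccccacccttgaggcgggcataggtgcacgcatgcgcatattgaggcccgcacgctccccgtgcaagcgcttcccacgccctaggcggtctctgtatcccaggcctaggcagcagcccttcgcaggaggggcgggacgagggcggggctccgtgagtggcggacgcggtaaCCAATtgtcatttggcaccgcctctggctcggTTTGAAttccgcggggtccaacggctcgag
They lie in GRCm38.p6 as follows: Ccnf at chr17:24251410-24251659 (minus strand), Ube2c at chr2:164769679-164769928 (plus strand), Mki67 at chr7:135716380-135716629 (minus strand), Ect2 at chr3:27153879-27154128 (minus strand), Top2a at chr11:99024190-99024439 (minus strand), Prc1 at chr7:80294226-80294475 (plus strand). In Ccnf, Ube2c, Top2a and Prc1 the nearest TTTGAA begins 14, 29, 23 and 30 bases before the start, and in Mki67 and Ect2 98 and 114 bases before it. Members with and without TTTGAA had like ratios, with medians of 0.22 over 25 and 0.22 over 14 measured genes. Of the members below 0, Bub3 and Ckap5 hold both motifs, and Pttg1 holds neither in this window. Over all other named genes the median was 0.004 for 646 genes that hold both and -0.01 for 10589 that do not. At least 1.2-fold higher were 6.81% of the first and 6.45% of the second set.

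Cyclins, Cdk1 and its regulators were all above 0, 8 of 8, with a median of 0.25. Ccnf, a cyclin that serves a ubiquitin ligase, had a signal of 1293 in high and 1086 in normal glucose, a log2 ratio of 0.33. Ccnb1, cyclin B, had 1599 and 1432 in high and normal glucose (0.24), and its other 2 probes gave 0.33 and 0.23. Cdk1 itself had 1731 in high and 1633 in normal glucose (0.16), with 0.11 from another probe. The cyclins Ccna2 and Ccnb2 had ratios of 0.29 and 0.25, and the Cdk subunit Cks2 0.21, or 0.13 from median pixels and 0.12 with normexp. Cdc25c, a phosphatase that activates Cdk1, had 0.28 from signals of 71.4 in high and 62.3 in normal glucose, about 1 spot SD, but 0.01 from median pixels and 0.04 with normexp. Its relative Cdc25b had the smallest ratio of the group, 0.06 from 878 in high and 891 in normal glucose, and turned to -0.04 from median pixels and with normexp and to -0.003 with median centring.

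In the ubiquitin pathway that ends mitosis, 4 of 5 genes were above 0, with a median of 0.15. Ube2c, the conjugating enzyme of the anaphase promoting complex, had 2019 in high and 1705 in normal glucose (0.32). A second Ube2c probe gave 0.28. Cdc20, the mitotic activator of that complex, had 4796 in high and 4257 in normal glucose (0.25). Espl1, the separase that cuts cohesin, had 0.15, but 0.03 from median pixels and 0.04 with normexp. Fzr1, the activator used after mitosis and in resting cells, had 0.09, and 0.01 from its second probe. Pttg1, the securin that restrains separase, was among the 4 members below 0, at 20170.2 in high and 21729 in normal glucose (-0.03), with 0.09 from another probe. Of the complex's core subunits 8 of 9 listed were measured, with a median of -0.02 and 3 above 0.

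Of the spindle checkpoint genes 3 of 4 measured were above 0, with a median of 0.24. Bub1, a checkpoint kinase at kinetochores, is printed 10 times on each array. Its 10 high glucose spots ran from 301 over a median of 321 to 348, and its 10 normal glucose spots from 248 over 273 to 296. Its log2 ratio was 0.33 ± 0.05 (SD over 10 pairs of spots, which are not replicate cultures). At least 1 of the spots carried an outlier flag. Spot ranges of other probes printed repeatedly are not given, so those of Bub1 are not set against them. Mad2l1, the checkpoint protein that binds Cdc20, had 2417 in high and 2054 in normal glucose (0.31). Its other 2 probes gave far larger ratios, 1.40 from 225 in high and 90.4 in normal glucose and 1.06 from 174 in high and 88.3 in normal glucose, or 1.21 and 0.91 from median pixels. Which part of the transcript each probe reads was not examined, so the size of the Mad2l1 difference is uncertain. Bub1b, the BubR1 kinase, had 0.16, or 0.10 with normexp. Bub3, their partner in the checkpoint complex, had 10838 in high and 11669 in normal glucose (-0.03). The kinase Ttk was well above background in high glucose alone, at 35.5 against 32.9 in normal glucose, a difference under 1 spot SD, and its median pixel log2 ratio was 0.04.

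**Figure D3:**
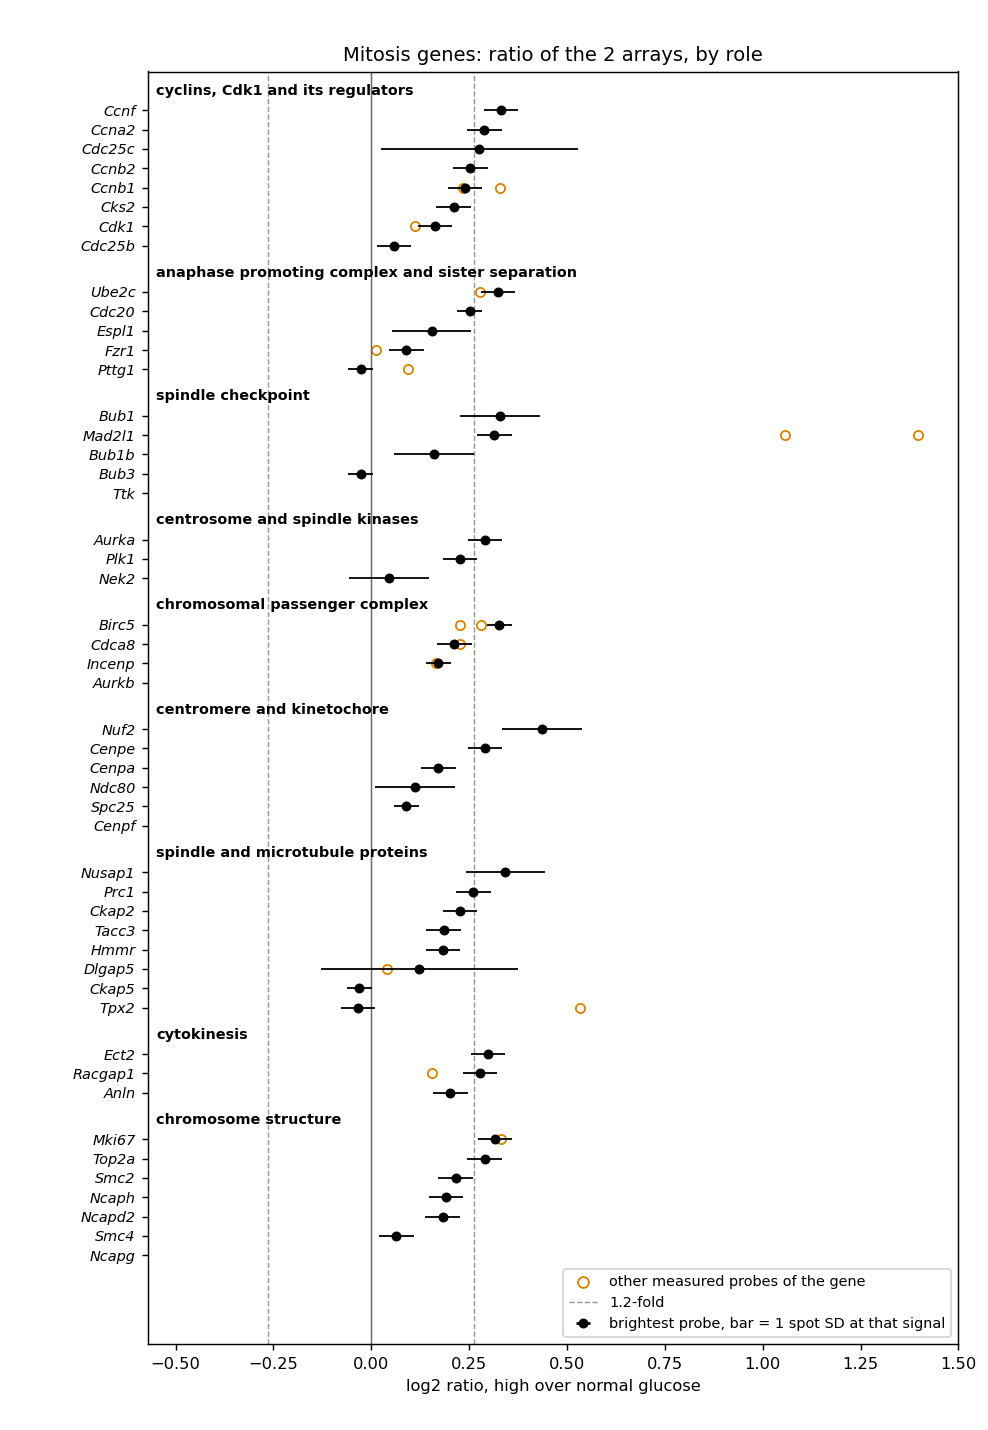
Log2 ratio of high over normal glucose for each measured gene by role. Black points are the brightest probe with a bar of 1 spot SD at that signal, orange circles the gene's other measured probes, and dashed lines mark 1.2-fold; the 2 circles far right belong to Mad2l1.

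Of the mitotic kinases, Aurka, which matures centrosomes, had 2795 in high and 2416 in normal glucose (0.29). Plk1, which acts from mitotic entry to cytokinesis, had 3171 in high and 2865 in normal glucose (0.23). Nek2, a kinase that splits centrosomes, had 220.4 in high and 226 in normal glucose (0.05), within 1 spot SD of 0 and at -0.01 with median centring. The chromosomal passenger complex corrects wrong attachments. Its member Birc5 (survivin) had 8559 in high and 7209 in normal glucose (0.33), and its other 2 probes gave 0.23 and 0.28. Cdca8 (borealin) had a ratio of 0.21 and the scaffold Incenp 0.17 from 6310.3 in high and 5926 in normal glucose, with second probes at 0.23 and 0.17. Aurkb, the kinase of the complex, did not pass the background flag on the 2 arrays, at 20.2 in high and 19.9 in normal glucose, so no ratio is given.

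At centromeres and kinetochores all 5 measured genes were above 0, with a median of 0.17. Nuf2 had the highest ratio of all members, 0.44 (1.35-fold), from 318 in high and 248 in normal glucose, where the spot SD is 0.10, and 0.29 with normexp. The other subunits of its complex, which grips microtubule ends, had smaller ratios of 0.11 for Ndc80 (0.07 with normexp), 0.09 for Spc25 and 0.02 for Spc24. Spc25 had 13916 in high and 13825 in normal glucose. Cenpe, a kinetochore motor, had 0.29 and Cenpa, the centromeric histone, 0.17. Cenpf, a kinetochore protein of late cell cycle, did not pass it either, at 8.39 in high and 22.3 in normal glucose.

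Of the spindle and microtubule proteins 6 of 8 were above 0, with a median of 0.18. Nusap1, which bundles spindle microtubules, had 541 in high and 451 in normal glucose (0.34). Prc1, the bundler of the midzone, had 0.26, Ckap2 0.23, the clathrin-binding spindle protein Tacc3 0.18, the hyaluronan receptor Hmmr, also a spindle protein, 0.18. Dlgap5 had 0.12, where the spot SD is 0.25, with 0.06 from median pixels and 0.04 from another probe. Ckap5, a microtubule polymerase, had 7654 in high and 8267 in normal glucose (-0.03). Tpx2, the activator of Aurka on the spindle, had 1710.3 in high and 1851 in normal glucose (-0.03, and 0.002 with the local trend removed). Its second probe, designed to another transcript record, gave 0.53 from 66.99 in high and 48.9 in normal glucose, where the spot SD is 0.25. Bub3 and Ckap5 were below 0 under all 13 settings, and Pttg1 and Tpx2 under 11 and 10.

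In cytokinesis all 3 genes were above 0. Ect2, an exchange factor at the midzone, had 776 in high and 667 in normal glucose (0.30). Its binding partner Racgap1 had 0.28, and 0.16 from its second probe. Anln (anillin), a scaffold of the contractile ring, had the lowest ratio of the 3, 0.20 from 3775 in high and 3468 in normal glucose.

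Among genes of chromosome structure, the proliferation marker Mki67 had 3564 in high and 3027 in normal glucose (0.32), with 0.33 from another probe. Top2a, the topoisomerase that untangles sister chromatids, had 587 in high and 508 in normal glucose (0.29). In condensin I, the kleisin Ncaph had 0.19 and the repeat subunit Ncapd2 0.18. The core ATPase Smc2 had 2197 in high and 2000.1 in normal glucose (0.22), and its partner Smc4 had 3825 in high and 3867 in normal glucose (0.06). The Smc4 ratio was -0.01 with normexp and -0.004 from median pixels. Ncapg was well above background in high glucose alone, at 42.2 against 26.9 in normal glucose, both dim single spots, and its median pixel log2 ratio was 0.16. No fold is given for Ttk or Ncapg. The 3 subunits found in condensin II alone are no members and were picked after their values were seen. They had ratios of 0.29 for Ncapg2, 0.15 for Ncapd3 and 0.11 for Ncaph2. The second probes of Ncapd3 and Ncaph2, however, gave -0.10 and -0.18.

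Other probes of the same genes read the same RNA and so check the probe, not the culture. Of 16 further measured probes of 13 members, all 16 had a ratio above 0, against 46.3% of the 4341 further probes of all named genes. Their median was 0.23 and their range 0.01 to 1.40. From median pixels the further probes of Pttg1 and Fzr1 gave -0.05 and -0.004. Median centring, which lowers each ratio by 0.06, turns those of Fzr1 (0.01) and Dlgap5 (0.04) negative.

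A wider list of 88 other mitosis genes had smaller ratios. Of 85 measured, 64 were above 0, against 46.8% of all named genes. Their median was 0.09 (0.03 with median centring and 0.02 among genes brighter than the median gene). At least 1.2-fold higher were 16 and lower 2, against 6.8% and 5.51% of all named genes. The 3 highest were Knl1, a kinetochore scaffold, at 0.79, and the kinesins Kif15 at 0.58 and Kif18a at 0.48. Knl1 and Kif15 were dim, at 59.9 and 50.4 in high and 36.6 and 35.6 in normal glucose. From median pixels Knl1, Kif15 and Kif18a had 0.54, 0.38 and 0.32. The 3 lowest were the kinesin Kifc1, at 542 in high and 1192 in normal glucose (-1.06), Ube2s, the chain-extending enzyme of the anaphase promoting complex, at 12807 in high and 22641 in normal glucose (-0.74), and Lin54 of the MuvB complex at -0.19. Median pixels gave -1.09 and -0.77 for Kifc1 and Ube2s, each of which had 1 measured probe. Ube2s works with Ube2c, whose ratio was 0.32.

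Sorted by complex after their values were seen, the 10 measured mitotic kinesins had a median of 0.20 with 8 above 0. Kif20a had 0.33, while Kif11 and Kifc1 lay below 0, at -0.06 and -1.06. For Kif11 median pixels gave -0.20. The 15 outer kinetochore, Ska and RZZ genes had a median of 0.09 with 14 above 0, and the 13 genes of the constitutive centromere network 0.12 with 9 above 0. Cohesin and its regulators, 11 genes, had 0.04 with 8 above 0. Beside these counts, 46.8% of all named genes were above 0. Median centring, which lowers each ratio by 0.06, turns the cohesin median negative. It does the same to single genes, among them Rad21, Stag1 and Pds5b of cohesin and Spc24, Dsn1 and Kntc1 of the outer kinetochore. The mitotic transcription factors Foxm1 and Mybl2 had ratios of 0.29 and 0.18, or 0.19 and 0.25 from median pixels. Another Mybl2 probe gave 0.32. Lin9, Lin37, Lin52 and Lin54 of the MuvB core lay between -0.19 and 0.04. For Lin52 the brightest probe gave -0.07, but its other 2 probes gave 0.05 and 0.30.

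Genes of DNA replication and S phase, an earlier stage of the cell cycle, were nearer to all genes. Of 48 measured, 36 were above 0, against 46.8% of all named genes. Their median was 0.06, or 0.001 with median centring. At least 1.2-fold higher were 4 and lower 1, against 6.8% and 5.51% of all named genes. The 3 highest were Pola1, a DNA polymerase subunit, at 644 in high and 372 in normal glucose (0.87), the loading factor Cdc6 at 0.34 and the methyltransferase Dnmt1 at 0.29. Among the low ratios were those of Gins1, a subunit of the replicative helicase, at -0.19 and Pole2, a DNA polymerase subunit, at -0.18. The helicase genes Mcm2 to Mcm7 had a median of 0.18, with 5 of 6 above 0. The difference between the medians of the mitosis and replication genes, 0.21 and 0.06, was not tested, since 1 array per condition allows no test.

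**Figure D4:**
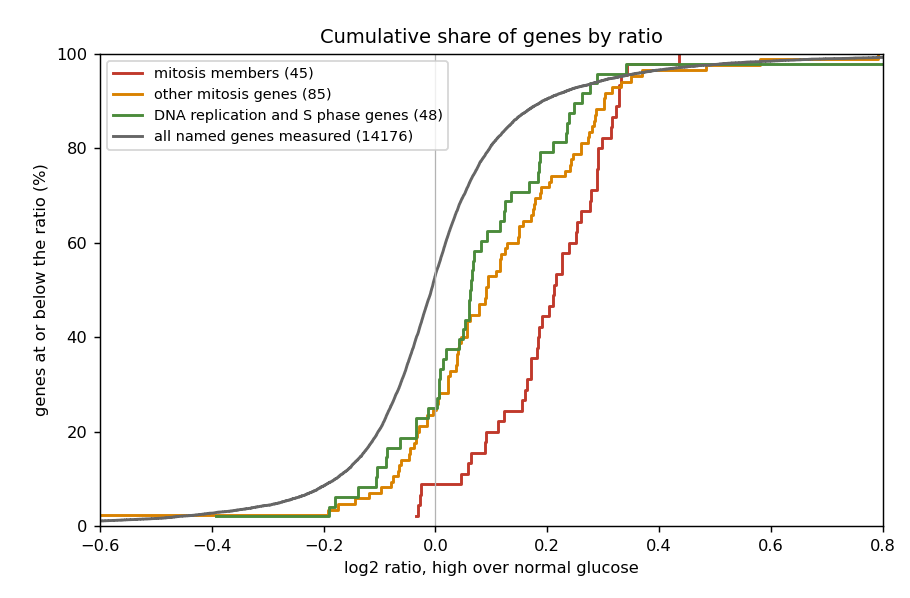
Cumulative share of genes (vertical axis, percent) at or below a log2 ratio of high over normal glucose (horizontal axis, shown from -0.6 to 0.8) for the 45 members, 85 other mitosis genes, 48 replication genes and all 14176 named genes measured. The members' curve lies to the right of the others until they meet near the top, and reaches its middle at 0.21.

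Markers of other cells were read beside these ratios. By the brightest probe, immune markers were above 0 for 6 of 6 measured, from 0.04 to 0.22, with summed signals of 30549 in high and 29662 in normal glucose. Other probes gave -0.49 and -0.22 for Itgam and -0.14 and 0.03 for Csf1r, and median pixels gave -0.20 for Ptprc, -0.03 for Cd3e and -0.001 for Adgre1. Smooth muscle markers were above 0 for 7 of 7 by the brightest probe, with sums of 629876 and 651409 in high and normal glucose. The sums are of signals before scaling, so a sum can be lower in high glucose while the scaled ratios lie above 0. Fibroblast markers were above 0 for 2 of 8, pericyte markers for 5 of 10, endothelial for 2 of 3, epithelial for 3 of 4 and Schwann cell markers for 0 of 5. Of all named genes 46.8% were above 0. Schwann cell ratios ran from -0.91 to -0.04. The unscaled sum of each of these sets was lower in high glucose, where 22.9% of all named genes had a higher unscaled signal. Pericyte markers had 108914 in high against 118672 in normal glucose, Schwann cell markers 2732 against 3093 and epithelial markers 777 against 802. The part of a shift in cell types in the ratios of the mitosis genes was not tested.

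**Figure D5:**
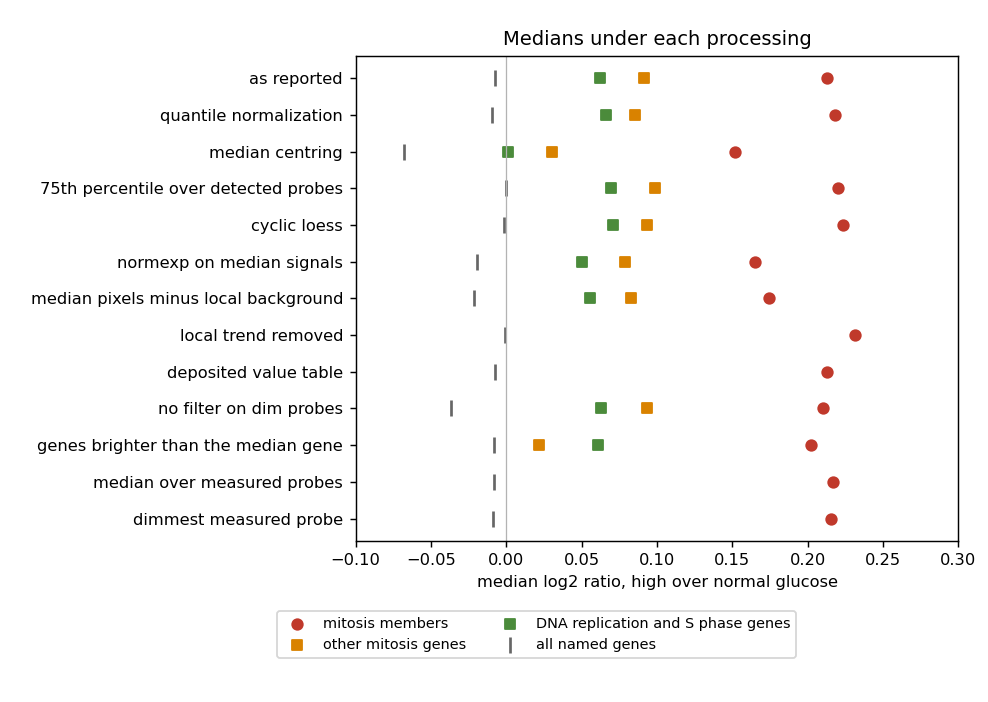
Median log2 ratio of high over normal glucose (horizontal axis) under each processing (rows), for the members, the other mitosis genes, the replication genes and all named genes. The members' medians lie between 0.15 and 0.23, above the other medians in each row; 4 of the rows were run without the 2 other lists.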

How the data were processed

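The deposited intensity values came, per the file headers, from Agilent Feature Extraction 11.5.1.1, which subtracted background and detrended within each array without scaling between arrays. The submitters' processing notes name version 9.3.2.1 instead. The 0 or 1 spot flags, of no unit, are per the file headers too. The authors' deposited value table held the same intensity values (55249 of 55249 probes with 1 spot matched within a relative tolerance of 0.0001), with column medians of 48.9 for high and 49.6 for normal glucose, so it is linear and neither centred nor scaled.

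Control spots (3671) were left out, processed signals of 59305 gene spots were turned to log2, spots of a probe were averaged, and the 75th percentile over 55681 probes was subtracted. Probes were named through RefSeq accessions without versions (27509 named, 28172 unnamed), and a gene was represented by the probe with the highest mean level. The background flag had to be set on a share of 0.5 or more of a probe's spots. The array was designed on another build (mm9), so probe coordinates are not printed. With 1 array per condition no test was run; 1.2-fold and 1.5-fold are lines of description, and the number of arrays limits the precision.

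Genes were named as follows: all members, and in each of the 2 other pathway lists the 3 highest and 3 lowest ratios, save items not reported here; cell type markers and further genes were named after their values were seen, and complexes within a list were named after their values were seen. The members and lists were chosen with earlier results of these data known. The alternatives were quantile normalization, median centring, a percentile over detected probes, cyclic loess, normexp with offset 50 (limma 3.58.1, R 4.3.3), median pixels, 2 filters on dim probes, 2 other probe choices, removal of the median ratio within 10 rows and columns, and the deposited table. Normexp was planned on mean spot signals, which the files do not hold, and was run on median signals, chosen after seeing the data. The summary step was tested on simulated data.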

Additional observations from a re-analysis of the deposited data

How the results depend on the processing

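The members' median of 0.21 lay between 0.15 and 0.23 under the 12 alternatives, the lowest being 0.15 with median centring and 0.17 with normexp. Of the 45 measured members 39 to 43 were above 0, with 44 of 49 without a filter on dim probes and 21 of 25 in the set of genes above the median signal (the filter leaves fewer genes). At least 1.2-fold higher were 15 members as reported, 5 with median centring, 6 among the brighter genes, 10 with normexp and 14 to 17 otherwise. Median centring lowers each ratio by the same amount; the cause of the other moves was not tested. Role medians with median centring were 0.19 for cyclins and Cdk1, 0.093 for the anaphase promoting complex, 0.18 for the checkpoint, 0.17 for centrosome kinases, 0.15 for the passenger complex, 0.11 for kinetochores, 0.12 for spindle proteins, 0.22 for cytokinesis and 0.14 for chromosome structure, and the other lists had 0.030 for mitosis and 0.0011 for replication. With normexp cyclins and Cdk1 had 0.17, the anaphase promoting complex 0.062, the checkpoint 0.17 and spindle proteins 0.14. From median pixels the same first 3 had 0.18, 0.068 and 0.19. Without a filter on dim probes the checkpoint had 0.19. In the brighter genes the checkpoint had 0.14, spindle proteins 0.077, cytokinesis 0.20 and the other mitosis genes 0.022. Of 520 single member values, 449 moved by at most 1 spot SD and 71 by more. Of the members 38 were above 0 in every setting that measured them. No paired analysis was possible because each condition has 1 array. Dim probes limit Cdc25c, Dlgap5, Ncapg, Ttk, Aurkb and Cenpf.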
